A study of Mus musculus with 2 samples.

Results

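The tumor necrosis factor (TNF) family of ligands and receptors was described across 11 cell clusters from mouse gastric tumors. Members were taken by gene name: every name in the table of cluster genes that begins with Tnfsf or Tnfrsf and a number, plus 13 older names such as Tnf, Fas and Cd40. The rule found 33 of the 18319 genes that the table names, of which 11 encode ligands, 21 encode receptors and 1, Tnfsf13os, is a non-coding transcript antisense to a ligand gene. Lta, Cd40lg, Cd27, Cd70, Fasl and Edar, 6 of the 13 older names, were not analysed here. The tumors grew after injection of DP-DSCs, the mouse dysplastic stem cells of the labels, into female mice of the NuJ strain, a nude strain whose hosts lack a working thymus and so most T cells, while B and NK cells are kept as background. A cystic adenocarcinoma was collected 10 weeks after injection and a tubular adenocarcinoma 13 weeks after it, with 1 inDrop single-cell library each. Values came from 1 table of the authors' own comparisons, which has no column of either tumor, so the tumor types were not compared. None of the folds therefore carries an error between animals. Cell numbers, shared barcodes and depth of the clusters are likewise not given in the sources.

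TNF ligands are mostly made as membrane proteins of the sending cell, can be cut free by proteases, and bind receptors as trimers. Receptors with a death domain can recruit caspases, other receptors bind TRAF adaptors that start NF-kappaB signalling, and decoy receptors bind a ligand without passing on a full signal. In the stomach and its tumors the family is known for inflammation, for survival of lymphoid and myeloid cells and for exchange between immune, stromal and epithelial cells.

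A gene was called listed in a cluster where the authors' deposited table gives it, which needs a fold above 1.5, and raised where the deposited fold reached 2 and the deposited p did not exceed 0.05. The fold is linear, its reference is not written in the table, and it is a difference between cells rather than a level. In marker lists, counted over the markers that the table names, cluster 4 had 10 of 10 macrophage genes raised and was macrophage-like. Cluster 8 had 10 of 10 macrophage and 5 of 8 dendritic genes raised and was given no name. Cluster 10 had 6 of 7 neutrophil genes raised and was neutrophil-like, with 5 of 7 T and NK genes and 4 of 10 macrophage genes raised beside them. Cluster 11 had 8 of 8 fibroblast genes raised and was fibroblast-like. Endothelial genes were raised too, 2 of 6 in each of clusters 9, 10 and 11. Clusters 3, 6 and 9 each had 6 of 10 epithelial genes raised and were epithelial-like, with 3, 6 and 7 of 7 surface mucous genes. The labels call both samples tumor cells, and the epithelial genes were raised in some clusters but not in clusters 1, 2, 4, 8, 10 and 11.

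Of the 33 members, 26 were raised in at least 1 cluster (78.8%), close to the 78.0% of all genes of the table. The family therefore did not stand out by being raised somewhere, and its description rests on where each member was raised. All 10 raised ligands were raised in exactly 1 cluster each, whereas 7 of the 16 raised receptors were raised in 1 cluster, 8 in 2 and 1 in 3. Over the family, 17 of the 26 raised members were raised in 1 cluster (65.4%), close to the 65.3% of all raised genes. Of the 11 ligands, 3, 2, 2 and 3 were raised in clusters 4, 8, 10 and 11, where 18.6%, 6.36%, 4.90% and 17.0% of all genes were raised. No ligand was raised in the epithelial-like clusters 3, 6 and 9, where 4.0%, 20.3% and 26.6% of all genes were. The pattern of 1 cluster per ligand depended on the thresholds. With the fold threshold at 1.5 the ligand calls were 12, since Tnf was also called in the macrophage-like cluster 4 and Tnfsf9 in cluster 2. With no use of p they were 19, among them calls in clusters 1, 5 and 6.

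**Figure D1:**
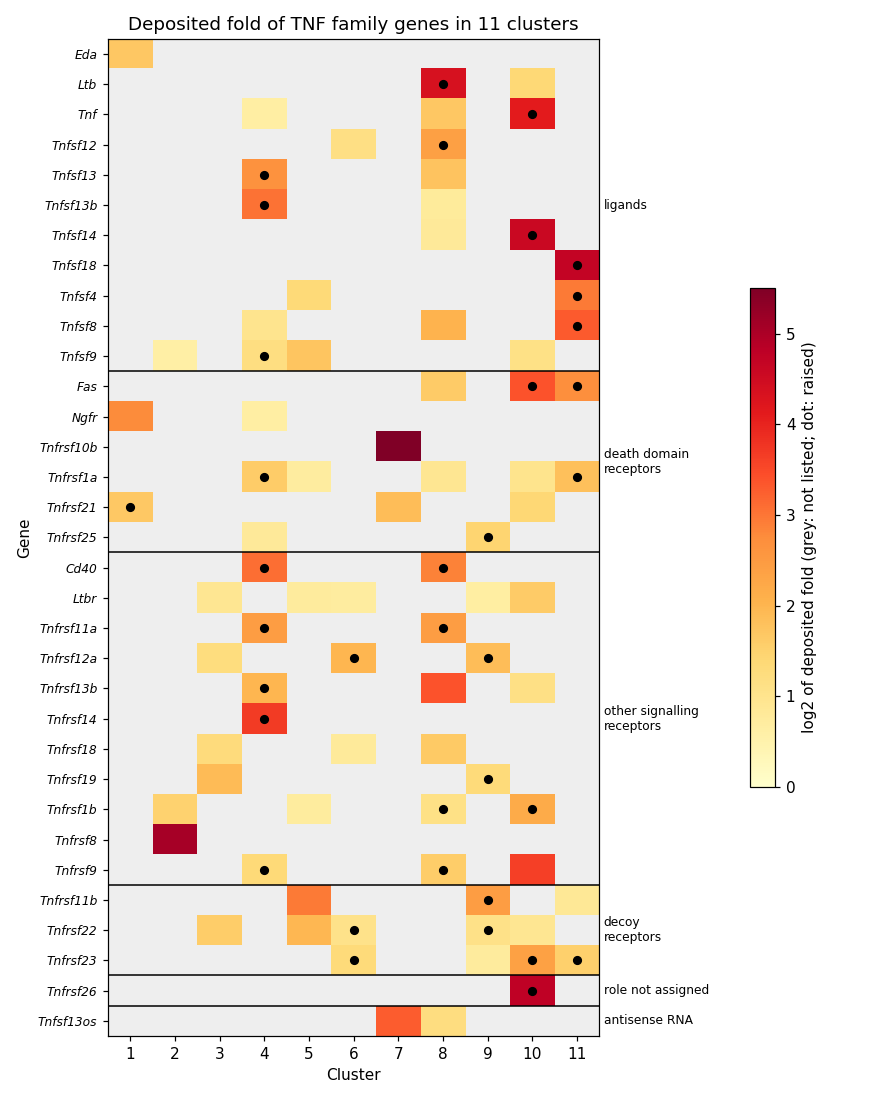
Deposited fold of the 33 TNF family genes (rows, grouped by role) in the 11 clusters (columns), coloured on a log2 scale. Grey cells were not listed and dots mark raised genes; all ligand dots lie in clusters 4, 8, 10 and 11, while the strongest colours of Tnfrsf10b in cluster 7 and Tnfrsf8 in cluster 2 carry no dot.

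Cluster by cluster, the family was read against the share of all genes raised. In the neutrophil-like cluster 10, 6 of 33 members were raised (18.2%), against 4.90% of all genes, and 14 were listed, against 18.9% of all genes. Cluster 8 also had 6 raised (18.2%, against 6.36% of all genes) and 16 listed (against 26.4%), but at a p of at most 0.01 it had 2 raised (6.06%, against 3.98% of all genes). In the macrophage-like cluster 4, 9 members were raised (27.3%, against 18.6%) and 13 listed (against 31.5%). The fibroblast-like cluster 11 had 6 raised (18.2%, against 17.0%) and 7 listed (against 25.7%), so its count lay near the background. Epithelial-like clusters lay below it: cluster 9 had 5 raised (15.2%, against 26.6%) and 7 listed (against 38.9%), and cluster 6 had 3 raised (9.09%, against 20.3%) and 6 listed (against 36.4%). With no use of p, 13 members were past a fold of 2 in each of clusters 8 and 10 (39.4%), against 20.3% of all genes in cluster 8 and 15.9% in cluster 10. No test was made of these shares, since the table holds cells of 1 library per tumor type.

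The remaining clusters had 1 raised member between them. In cluster 1 it was Tnfrsf21, of 3 listed (1.82% of all genes raised and 6.34% listed). Cluster 3 had 5 listed and 0 raised (4.0% and 29.9% of all genes), and cluster 5 had 7 and 0 (4.32% and 20.6%). Clusters 2 and 7 had 3 listed each and 0 raised, against 2.89% of all genes raised and 9.07% listed in cluster 2 and 3.42% and 12.1% in cluster 7. Cluster 2 had 5 of 5 erythroid genes raised. Cluster 5 had 3 of 6 mast cell genes and 2 of 10 epithelial genes raised, and cluster 7 had 2 of 10 epithelial genes raised. Without the deposited p, a fold of at least 2 was given for 3, 2, 4, 4 and 3 members in clusters 1, 2, 3, 5 and 7. As shares these were 9.09%, 6.06%, 12.1%, 12.1% and 9.09% of members, against 5.65%, 7.39%, 22.0%, 16.3% and 10.1% of all genes, and only cluster 1 lay above its background.

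**Figure D2:**
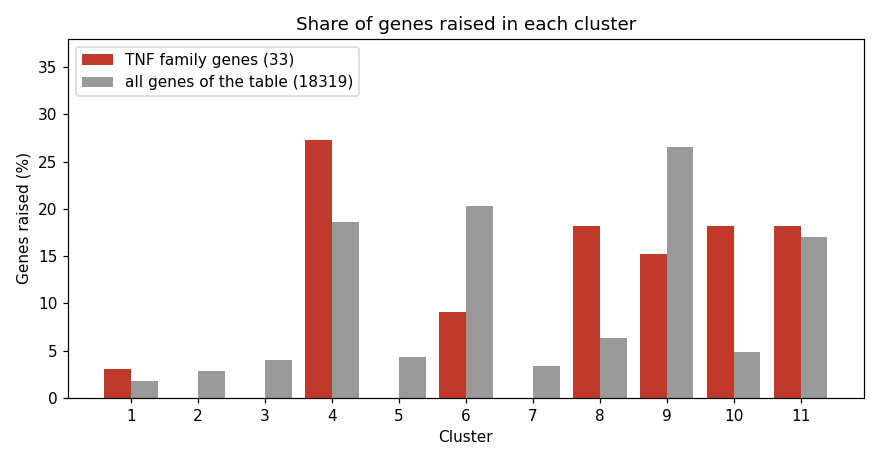
Percent of the 33 TNF family genes raised in each cluster (red) beside the percent of all 18319 genes raised there (grey). The red bar is the taller one in clusters 1, 4, 8, 10 and 11 and the shorter one in clusters 2, 3, 5, 6, 7 and 9; no error bars exist because each tumor type had 1 library.

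Stretches of promoter are shown for 3 members that were raised in immune clusters and hold a motif before their start. Fas, among these, was also raised in the fibroblast-like cluster 11. Only stretches free of annotated exons of any member were taken. Tnfrsf9, Tnfsf13 and Tnfsf13b, also raised in immune clusters and with a match, gave no such stretch. Promoters of 24 of the 33 members were found in the RefSeq table of build GRCm38.p6, from 250 bases before to 50 after the start. The motifs searched, on both strands, were the kappaB consensus of NF-kappaB and the AP-1 type motif TGANTCA, and no match to one overlapped a match to the other in these members. The kappaB consensus was in the promoter of 3 of the 24 members (12.5%), Ltb, Tnfrsf8 and Tnfrsf9, against 5.14% of 27025 genes. TGANTCA was in 6 of the 24 (25.0%), Fas, Tnfrsf8, Tnfrsf9, Tnfsf13, Tnfsf13b and Tnfsf14, against 8.97% of genes. A match describes letters in a window and is no evidence of binding. The match lies 87 bases before the RefSeq start for Ltb, 160 for Tnfsf14 and 211 for Fas. RefSeq and GENCODE M21 starts can differ. For Ltb the RefSeq start lies inside the gene as placed by GENCODE M21, which begins at 35194439, so the match is closer to that start. Each stretch has 60 bases, 5′ to 3′ on the gene's strand, with the match in capitals.
Ltb (chr17:35194379-35194438, plus strand): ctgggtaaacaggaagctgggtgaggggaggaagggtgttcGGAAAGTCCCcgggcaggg
Tnfsf14 (chr17:57194309-57194368, minus strand): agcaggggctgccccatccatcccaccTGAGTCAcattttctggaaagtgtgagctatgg
Fas (chr19:34290421-34290480, plus strand): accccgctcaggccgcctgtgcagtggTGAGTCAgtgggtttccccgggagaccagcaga

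Among the ligands, Tnf, the founding inflammatory cytokine of the family, was raised in the neutrophil-like cluster 10. In the authors' deposited table its fold was 17.3 in cluster 10, where it was number 93 of 3466 genes by p. It was also listed at 3.22 in cluster 8 and at 1.56 in the macrophage-like cluster 4, but raised in neither, and the other 8 clusters did not list it. Tnfsf14 (LIGHT), which binds Ltbr and Tnfrsf14, was raised in cluster 10 as well, with a fold of 24.1 by the authors' deposited table, and was at 1.75 in cluster 8, not raised. Of the T and NK markers raised beside these ligands in cluster 10, Cd4 and Cd3e were at 110.7 and 25.9 by the authors' deposited table. Their part in the ligand folds was not tested.

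Ltb (lymphotoxin beta), a membrane ligand that pairs with lymphotoxin alpha and signals through Ltbr, was raised in cluster 8 at a fold of 20.4 by the authors' deposited table. In cluster 10 it was listed at 2.56 and not raised. Ltb and Tnf are neighbours on chromosome 17, from 35194439 to 35196320 and from 35199381 to 35202007, with 3.1 kb and no coding gene between them in GENCODE M21. Both were listed in clusters 8 and 10, each raised in a different one. Tnfsf12 (TWEAK), the ligand of Tnfrsf12a, was raised in cluster 8 with a fold of 5.29 by the authors' deposited table, and was listed at 2.23 in the epithelial-like cluster 6 without being raised. T and NK genes moved with cluster 8 too, 2 of 7, Nkg7 at 46.3 and Cd8a at 23.3 by the authors' deposited table, and their part in these calls was not tested.

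In the macrophage-like cluster 4 the raised ligands were the B cell survival factors Tnfsf13b (BAFF) and Tnfsf13 (APRIL) and the costimulatory ligand Tnfsf9. Their folds were 8.20, 6.32 and 2.29 by the authors' deposited table. Tnfsf13b and Tnfsf13 were listed again in cluster 8, at 1.71 and 3.37 by the authors' deposited table, raised in neither case. Tnfsf9 was the ligand listed in most clusters, also in clusters 2, 5 and 10 at 1.54, 3.30 and 2.15, by the authors' deposited table, with the call in cluster 4 alone. Tnfsf13 and Tnfsf12 lie 465 bases apart on the minus strand of chromosome 11, and the antisense transcript Tnfsf13os, from 69682138 to 69691141, overlaps both Tnfsf13 and Tnfsf12 (69686250 to 69695849). Whether counting used strand is not stated, so reads of these genes may not be told apart. Tnfsf13os was listed at 9.78 in cluster 7 and 2.31 in cluster 8 by the authors' deposited table and raised in neither.

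The fibroblast-like cluster 11 had another set of ligands, all of them known for costimulating lymphocytes. Tnfsf18 (GITR ligand), Tnfsf8 (CD30 ligand) and Tnfsf4 (OX40 ligand) had folds of 26.1, 9.87 and 7.80 there by the authors' deposited table. The endothelial markers Tek and Kdr were also raised in cluster 11, at 5.86 and 3.60 by the authors' deposited table. The part of endothelial cells in the ligand folds was not tested. Tnfsf18 was listed in no other cluster. Tnfsf8 was also listed at 1.98 in cluster 4 and 4.07 in cluster 8, and Tnfsf4 at 2.53 in cluster 5, by the authors' deposited table, and these were not raised. Tnfsf4 and Tnfsf18 are neighbours on the plus strand of chromosome 1, from 161395409 to 161418410 and from 161494655 to 161505290, with 76.2 kb between them. Eda (ectodysplasin), which directs the growth of skin appendages, was the only ligand raised in no cluster and was listed at 3.24 in cluster 1 by the authors' deposited table.

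Of the raised death domain receptors, only Fas and Tnfrsf1a had a cluster in common, cluster 11. Fas, the receptor of Fas ligand, was raised in cluster 10 at 10.4 and in cluster 11 at 6.48, and was at 3.06 in cluster 8 without being raised, by the authors' deposited table. Tnfrsf1a, the main TNF receptor of most tissues, was raised in cluster 11 at 3.52 and in cluster 4 at 3.05, and was listed in clusters 10, 8 and 5 at 2.01, 1.88 and 1.62 by the authors' deposited table. Both were thus raised in the fibroblast-like cluster. Tnfrsf21 (death receptor 6) was raised in cluster 1 at 3.17, against 3.63 in cluster 7 and 2.61 in cluster 10 where it was not raised, by the authors' deposited table. Tnfrsf25 (death receptor 3) was raised in the epithelial-like cluster 9 at 2.72 and was at 1.75 in cluster 4, not raised, by the authors' deposited table.

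Both remaining death domain receptors were raised nowhere. Tnfrsf10b, the signalling receptor of the death ligand TRAIL in mice, had the largest fold of any member, 45.4 in cluster 7, by the authors' deposited table. It was number 2061 of the 2217 genes of that cluster by p, so its large fold came with one of the weaker p-values of the list. Ngfr, the low-affinity neurotrophin receptor, was listed at 6.76 in cluster 1 and 1.55 in cluster 4 by the authors' deposited table. Tnfrsf8 (CD30), a receptor without a death domain, had the next largest fold of the members, 33.3 in cluster 2 by the authors' deposited table, and was not raised there.

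Of the other signalling receptors, Tnfrsf12a (Fn14) is the TWEAK receptor, known for its induction in injured epithelium. It stood among the leading genes by p in the epithelial-like clusters 6 and 9. In the authors' deposited table its fold was 3.62 in cluster 9, number 72 of 7131 genes by p, and 3.99 in cluster 6, number 151 of 6664. In cluster 3 it was at 2.34 and not raised, and no other cluster listed it. Tnfrsf12a lies on chromosome 17 from 23675445 to 23677468. Its ligand Tnfsf12 was raised in cluster 8, where the receptor was not listed. Tnfrsf19 (Troy), known from gastric and intestinal stem cell work, was raised in cluster 9 at 2.47 but stood at number 6925 of 7131 by p, and it was at 3.74 in cluster 3 without being raised, by the authors' deposited table. With p at most 0.01 Tnfrsf19 was not called.

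Cd40, Tnfrsf11a and Tnfrsf9 were raised in both clusters 4 and 8. Cd40, through which helper T cells activate macrophages, dendritic cells and B cells, was at 8.50 in cluster 4 and 7.34 in cluster 8 by the authors' deposited table. Tnfrsf11a (RANK), the receptor that drives osteoclast formation from myeloid precursors, was at 5.41 in cluster 4 and 5.40 in cluster 8 by the authors' deposited table. Tnfrsf9, a costimulatory receptor of activated lymphocytes, was at 2.55 and 3.01 in clusters 4 and 8 and was listed in cluster 10 at 12.4 without being raised, by the authors' deposited table. Cd40 and Tnfrsf11a were listed in no further cluster. The T and NK genes Nkg7 and Cd8a, raised in cluster 8 as given above, include markers of lymphocytes, and their part in the Tnfrsf9 fold was not tested. Tnfrsf11a and Ltb were the 2 members still raised in cluster 8 at a p of at most 0.01 (6.06%, against 3.98% of all genes).

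Tnfrsf14 (HVEM), a receptor of LIGHT, had the largest fold among the raised members of cluster 4, 12.8 by the authors' deposited table, and was listed in no other cluster. Tnfrsf13b (TACI), a receptor of APRIL and BAFF known from B cells, was raised in cluster 4 at 3.95 and was listed at 10.4 in cluster 8 and 2.20 in cluster 10 without being raised, by the authors' deposited table. Of 8 B and plasma cell markers the table named 1, Ighm, which was raised at 2.97 in cluster 4 and 16.7 in cluster 10 and not raised at 1.62 in cluster 8, by the authors' deposited table. The part of B cells in the Tnfrsf13b fold was not tested. Tnfrsf1b, the TNF receptor without a death domain, was raised in cluster 10 at 4.56, number 108 of 3466 by p, and in cluster 8 at 2.14, and was at 2.82 in cluster 2 and 1.64 in cluster 5 without being raised, by the authors' deposited table.

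Ltbr, the lymphotoxin beta receptor, was listed in 5 clusters and raised in none. In the authors' deposited table it stood at 1.88, 1.63 and 1.58 in the epithelial-like clusters 3, 6 and 9, at 1.66 in cluster 5 and at 3.09 in cluster 10. All but that of cluster 10 lay under the threshold of 2, and with the threshold at 1.5 the receptor was called in clusters 6 and 9. Tnfrsf18 (GITR) was listed in clusters 3, 6 and 8 at 2.44, 1.72 and 3.12, by the authors' deposited table, and raised in none of them.

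All 3 decoy receptors were raised in at least 1 cluster, as were 78.0% of all genes. Tnfrsf11b (osteoprotegerin), a secreted decoy of the RANK ligand, was raised in cluster 9 at 5.39, the largest fold among the raised members of that cluster, and was at 7.82 in cluster 5 and 1.80 in cluster 11 without being raised, by the authors' deposited table. Tnfrsf22, a mouse decoy receptor of TRAIL, was raised in cluster 6 at 2.05 and cluster 9 at 2.12, and was also listed in clusters 3, 5 and 10 at 3.0, 3.91 and 1.88 by the authors' deposited table. Tnfrsf23, its sister decoy, was the member raised in most clusters, namely clusters 10, 11 and 6 at 5.19, 2.92 and 2.45, and was at 1.68 in cluster 9, by the authors' deposited table. At a fold of at least 3, Tnfrsf12a was the only member still called in cluster 6, and Tnfrsf11b and Tnfrsf12a in cluster 9 (3.03% and 6.06% of members, against 12.0% and 14.1% of all genes).

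Tnfrsf26, a receptor of the same gene array, was raised in cluster 10 at 27.1, number 75 of 3466 genes by p, by the authors' deposited table, and was listed in no other cluster. It had the largest fold among the raised members of any cluster. Tnfrsf26, Tnfrsf22 and Tnfrsf23 follow each other on the minus strand of chromosome 7, from 143607659 to 143685872 as a whole, with 6.1 and 16.1 kb between them. As related genes of 1 array they may share reads, and how the authors' counting treated such reads is not given in the sources used here.

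**Figure D3:**
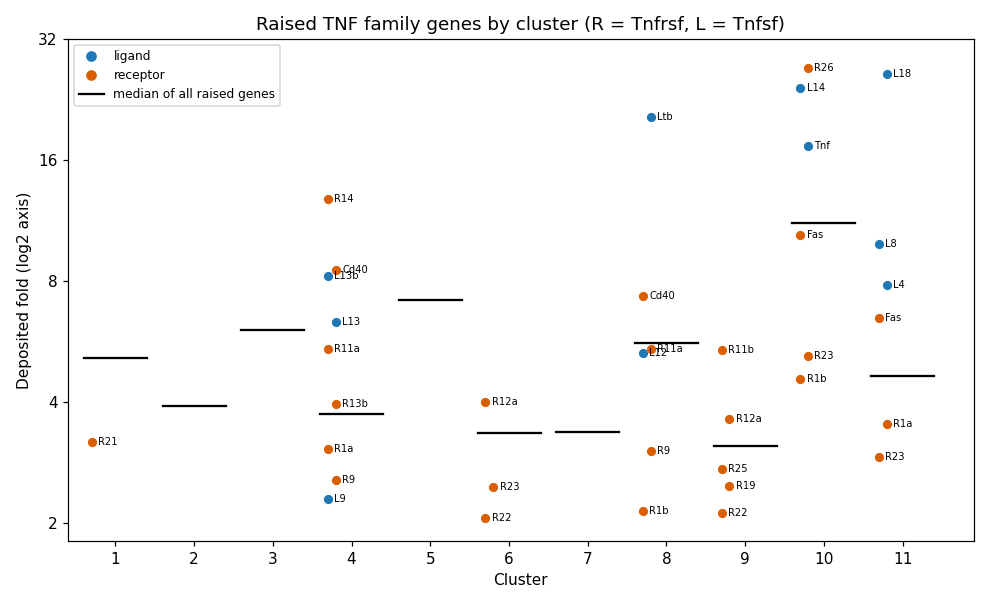
Deposited folds of the raised TNF family genes in each cluster on a log2 axis, with ligands in blue and receptors in orange, and the median of all raised genes of the cluster as a black line. The largest folds in clusters 10 and 11 are 27.1 of Tnfrsf26 and 26.1 of Tnfsf18, and the lines there lie at 11.15 and 4.64. A largest value beside a median does not compare the family with other genes.

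Fold sizes of the family were set beside those of all raised genes. The median over raised members was 5.41 in cluster 4, 13.85 in cluster 10 and 7.14 in cluster 11, against medians of 3.73, 11.15 and 4.64 over all raised genes of these clusters. In cluster 8 it was 5.34, against 5.61 over all raised genes. For clusters 6 and 9 it was 2.45 and 2.72, against 3.34 and 3.10. These medians rest on 3 to 9 members each and were not tested.

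Known ligand and receptor partners were compared by cluster. Of 11 pairs with both sides among the members, both sides were raised somewhere in 7 and within the same cluster in 4. Tnf and Tnfrsf1b were both raised in cluster 10. In cluster 4, Tnfsf9 was raised with Tnfrsf9, and Tnfsf13 and Tnfsf13b with their shared receptor Tnfrsf13b. For cluster 4, 27.3% of members and 18.6% of all genes were raised, and for cluster 10, 18.2% and 4.90%. The count of shared clusters was not set against pairs of other genes. For 3 pairs the sides were raised in different clusters: Tnf in cluster 10 and Tnfrsf1a in clusters 4 and 11, Tnfsf14 in cluster 10 and Tnfrsf14 in cluster 4, and Tnfsf12 in cluster 8 and Tnfrsf12a in clusters 6 and 9. The receptors Ltbr, Tnfrsf8 and Tnfrsf18 of the other 4 pairs were raised in no cluster. Such a list of clusters says nothing of whether cells met or signalled.

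Genes that act downstream were counted from 7 lists. The list of NF-kappaB feedback inhibitors had 10 genes, and whether each of them inhibits was not checked. Of these genes, 5 were raised in cluster 4 (50.0%, against 18.6% of all genes), 5 in cluster 8 (50.0%, against 6.36%) and 4 in cluster 10 (40.0%, against 4.90%). Nfkbia, the inhibitor that holds NF-kappaB in the cytoplasm, was raised in all 3, at 2.59, 2.30 and 14.5 by the authors' deposited table. Next to it in cluster 10 stood Nfkbid at 10.7, Nfkbiz at 8.03 and the ubiquitin-editing enzyme Tnfaip3 at 5.94 by the authors' deposited table. The largest in cluster 8 were Nfkbie at 16.9 and Tnip2 at 8.31, and in cluster 4 Tnip3 at 9.10 and Tnip2 at 3.72, by the authors' deposited table. No gene of this list was raised in clusters 6 and 11, against 20.3% and 17.0% of all genes, and 2 were in cluster 9 (20.0%, against 26.6%).

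TNF-induced genes, of which the table named 20, had 8 raised in cluster 4 (40.0%, against 18.6% of all genes) and 4 in cluster 8 (20.0%, against 6.36%). Clusters 10 and 11 had 6 each (30.0%), against 4.90% of all genes in cluster 10 and 17.0% in cluster 11. Cluster 4 shared Ccl2, Cxcl1 and Cxcl10 with cluster 8, Ccl2, Nos2 and Sod2 with cluster 11, and Cxcl2 and Bcl2a1b with cluster 10. In the authors' deposited table the chemokines Cxcl1 and Ccl2 led in cluster 4 at 16.4 and 9.92. The adhesion molecule Icam1 and the chemokine Cxcl2 led in cluster 10 at 53.3 and 14.7 by the authors' deposited table. Icam1 was only number 925 of 3466 genes there by p. In cluster 11 Tnfaip6 led at 1016.9, number 1 of 4710 genes by p, by the authors' deposited table. The nitric oxide synthase Nos2 and lipocalin Lcn2 followed there at 30.0 and 15.4 by the authors' deposited table. Of the epithelial-like clusters, cluster 3 had 1 such gene raised, Csf2, against 4.0% of all genes. Cluster 6 also had 1, Tnfaip8, against 20.3% of all genes, and cluster 9 had 0 raised and 3 listed, against 26.6% of all genes raised. Many of these genes also respond to other stimuli, and the list measures no response to TNF itself.

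Death signalling genes were raised most in clusters 4 and 9, with 5 of 13 in each (38.5%, against 18.6% and 26.6% of all genes). Within cluster 4 the adaptor Tradd led the list at 3.91, and within cluster 9 the necroptosis effector Mlkl at 4.09, by the authors' deposited table. Cluster 10 had 0 raised and 1 listed, where only 4.90% of all genes were raised and 18.9% listed. TRAF and IAP adaptors, 11 genes, had 5 raised in cluster 9 (45.5%, against 26.6% of all genes) and 4 in cluster 4 (36.4%, against 18.6%), with Traf3ip2 at 3.25 and Traf4 at 2.85 in cluster 9 and Traf2 at 6.65 and Traf1 at 6.16 in cluster 4 by the authors' deposited table. NF-kappaB subunits and kinases, 13 genes, had 4 raised in each of clusters 4 and 9 (30.8%, against 18.6% and 26.6%), Tab3 at 4.33 leading in cluster 4 and Tab1 at 3.35 in cluster 9 by the authors' deposited table. The subunit Rel was at 10.1 in cluster 8 and Rela at 3.30 in cluster 6 by the authors' deposited table, both raised.

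Genes for shedding of TNF ligands, 7 in all, had 3 raised in cluster 11 (42.9%, against 17.0% of all genes) and 2 in each of clusters 4 and 9 (28.6%, against 18.6% and 26.6% of all genes). Timp3, which inhibits the TNF-releasing protease, was at 39.0 in cluster 11 and 2.81 in cluster 9 by the authors' deposited table. That protease, Adam17, was raised in cluster 10 at 7.81, the cluster where Tnf was raised, and its trafficking partner Rhbdf2 in cluster 4 at 6.90, by the authors' deposited table. Partners of ectodysplasin and neurotrophin receptors, with 9 genes named, had 4 raised in cluster 6 (44.4%, against 20.3%), 3 in cluster 9 (33.3%, against 26.6%) and 2 in cluster 11 (22.2%, against 17.0%). In clusters 6 and 9 Bdnf was at 3.72 and 3.89 by the authors' deposited table. Eda2r, a receptor of this list that the name rule left out, was at 3.60 and 4.71 there by the authors' deposited table. The neurotrophin receptor Ntrk2 was at 12.8 in cluster 11 by the authors' deposited table. Ngfr, the neurotrophin receptor among the members, was raised in none of these clusters.

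**Figure D4:**
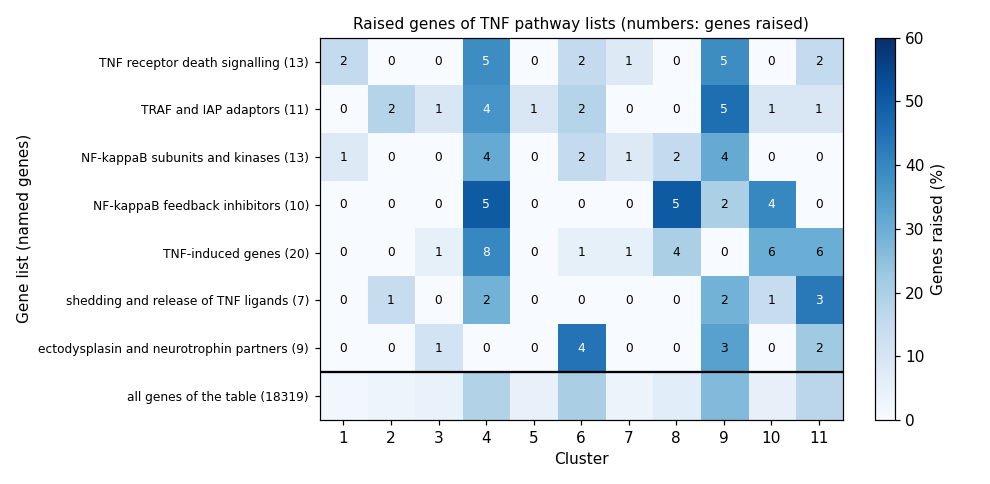
Percent of the named genes of 7 TNF pathway lists raised in each cluster (colour) with the number raised in each cell, and the percent of all 18319 genes raised in the bottom row. The list of NF-kappaB feedback inhibitors had 5, 5 and 4 genes raised in clusters 4, 8 and 10 and 0 in clusters 6 and 11.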

How the data were processed

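Cells dissociated from 1 cystic and 1 tubular tumor were captured on the inDrop platform, per the labels' protocols. The submitters' processing notes name STAR 2.7.3a, Partek, DESeq2 3.5 and mm10, with no role given. The authors deposited 1 table with a linear fold and a p-value for each gene and cluster, per the file headers. Its test, adjustment and reference are not stated in the labels or header, and 0 columns hold per-sample values. All deposited folds are at least 1.50, so falling genes are not seen. Cells are no replicates, so the deposited p served only as a filter.

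Counts were made with Python 3.11.15 and pandas 2.3.3, and figures with matplotlib 3.10.9. Counting was tested on a simulated table. Members, roles, partners and the 7 pathway and 11 marker lists were chosen with earlier results of these data known. All raised members were named with their folds; from each list, the raised genes of largest fold in its leading clusters were named. Positions are from GENCODE M21 (GRCm38), where 33 of 33 members matched by symbol. Protein sequences were not used here.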

Additional observations from a re-analysis of the deposited data

How the results depend on the processing

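No paired analysis was possible because each tumor type had 1 library and the table has no per-sample columns. Cluster 4 had the most raised members under each alternative but the one with no use of p, where clusters 8 and 10 did. The number raised in at least 1 cluster kept within 1.5 times its value of 26 under each alternative. The 36 pairs of a member and a cluster, 10 of ligands and 26 of receptors, became 66, 19 and 45 with no use of p. By cluster, that setting gave 3, 2, 4, 4, 3, 13 and 13 members for clusters 1, 2, 3, 5, 7, 8 and 10, where 5.65%, 7.39%, 22.0%, 16.3%, 10.1%, 20.3% and 15.9% of all genes were past that fold. With a fold of at least 1.5, cluster 2 had 1 member, with a fold of at least 3 cluster 6 had 1 and cluster 9 had 2, and with a p of at most 0.01 cluster 8 had 2 (6.06%, against 3.98% of all genes). Adding Eda2r and Relt, or leaving out the antisense transcript (an alternative chosen after seeing the data), moved no count by more than 1.5 times. Of 132 single-cluster ligand and receptor counts under alternatives, 17 moved further. Pairs of a pathway gene and a cluster numbered 17 for death signalling, 17 for TRAF and IAP adaptors, 14 for NF-kappaB subunits, 16 for feedback inhibitors, 9 for shedding and 10 for ectodysplasin and neurotrophin partners. With a fold of at least 3 these were 11, 7, 9, 10 and 4 for the first 5 lists. With no use of p they were 31 for death signalling, 28 for NF-kappaB subunits, 15 for shedding and 19 for ectodysplasin and neurotrophin partners. A larger count with no use of p follows from dropping a criterion; depth per cluster is unknown, so a gene that is not listed may have been too sparse to measure.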

Other observations

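Both receptors of the TNF family that the name rule left out, Eda2r and Relt, were also in the table. Eda2r is already counted above in the list of ectodysplasin and neurotrophin partners. Eda2r, a receptor of an ectodysplasin form, was raised in the epithelial-like clusters 9 and 6 at folds of 4.71 and 3.60 by the authors' deposited table, and was at 2.54 in cluster 3 without being raised. Its ligand gene Eda was listed in cluster 1 alone. Relt was at 29.8 in cluster 10 and 2.03 in cluster 11 by the authors' deposited table and was raised in neither.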
